A study of Mus musculus with 4 samples.

Results

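Qk and 38 other splicing regulators were examined in cultured primary mouse macrophages labelled as wild type or as carrying a conditional deletion of G3bp1. The 39 genes were taken by symbol from the deposited gene table, which lists 34745 genes, and all 39 passed the filter on low counts. They comprised 2 genes of the Quaking and Sam68 type (Qk and Khdrbs1), 7 genes of the muscleblind, CELF, RBFOX and polypyrimidine tract-binding families (Mbnl1, Mbnl2, Celf1, Celf2, Rbfox2, Ptbp1 and Ptbp3), 12 genes for SR or SR-like proteins (Tra2a, Tra2b, Srsf1 to Srsf7, and Srsf9, Srsf10 and Srsf11), 17 hnRNP genes and Rbm39.

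Splicing regulators are RNA-binding proteins that decide which exons of a pre-mRNA are kept. SR proteins carry a domain rich in arginine and serine and mostly promote the use of the exon they bind, hnRNPs often oppose them, and the muscleblind, CELF, RBFOX and Quaking proteins give a tissue its own set of isoforms. QKI, the product of Qk, is made as several isoforms that differ at their C terminus and in their place in the cell, and it binds an ACTAA core with a shorter TAA site nearby, written here in the letters of the DNA. In macrophages and monocytes QKI is known to shape alternative splicing during differentiation.

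The study asked how G3BP1, the RNA-binding protein on which stress granules assemble, affects macrophages. Per the labels the genotypes were WT and G3bp1mac-/-, each with 2 libraries numbered 1 and 2, and the latter are called KO here. According to the study's methods the WT cells carried the floxed G3bp1 allele without Cre, and the KO cells carried it with Cre driven by the Lyz2 promoter, which acts in macrophages, monocytes and neutrophils. All cells grew in DMEM with fetal bovine serum, and no stimulus is named for these libraries. The age, sex and strain of the mice behind these libraries are not given in the sources used here. The study's methods state them together only for mice obtained from a supplier, which are not tied to these libraries. Whether the numbers mark separate animals, cultures or days is not given either. The p-values therefore measure only the spread between these samples, which may be technical.

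Library totals lay between 16724241 and 19747909 counts, and 12418 genes were tested. The targeted gene G3bp1 did not separate the genotypes, with 104 and 180.4 CPM (counts relative to the TMM-scaled total of the library) in WT libraries 1 and 2 and 70.1 and 117 CPM in KO libraries 1 and 2 (log2 fold change -0.61 ± 0.40 SE, edgeR quasi-likelihood adjusted p = 0.904). Inside each library number KO was lower, by log2 ratios of -0.57 and -0.63. Counts over the whole gene do not show which exons were covered, so the deletion was not checked, and KO stands throughout for the libraries labelled so. Macrophage markers were abundant, with a summed level over 12 genes of 47933 and 45447 CPM in WT and 37388 and 44129 CPM in KO. Both KO sums thus lay below both WT sums, with 3 of the genes lower and 1 higher in each KO library. T and NK cell markers summed to at most 3.27 CPM. Stromal markers summed to 108 and 121 CPM in WT and to 489 and 454 CPM in KO. The first principal component, with 56.5% of the variance, separated the libraries by number, and the second, with 34.7%, separated them by genotype.

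Of the 39 splicing regulators 0 were called different between the genotypes by the edgeR quasi-likelihood test (adjusted p under 0.05 with an absolute log2 fold change over 1), as were 0% of all genes tested. At an unadjusted p under 0.05, 2 members (Rbfox2 and Srsf1) were higher in KO, against 4.64% of all genes, and 1 (Hnrnpf) was lower, against 1.99% of all genes. The edgeR exact test called 1 member, Rbfox2 (adjusted p = 0.0429), where 1.84% of all genes were called, and the DESeq2 Wald test called 0 members, where 1.3% of all genes were called. By the Wald test Hnrnpf passed the adjusted p (0.0422) and fell short of the minimum fold change, with a log2 fold change of -0.98. The median log2 fold change of the members was 0.08 with an interquartile range of -0.08 to 0.24, beside a median of 0.04 over all genes tested. It turned to -0.11 with a correction of each library for its trend with gene length, to -0.079 without WT library 1 and to -0.032 without KO library 2. For 34 of the 39 members the fold change lay within 0.5 of 0, and for 36 the 95% confidence interval spanned 0. The median member had an SE of 0.27, and its interval reached 0.69 to either side on the log2 scale.

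The 2 KO libraries were both higher than the 2 WT libraries for 8 members (20.5% of 39), as for 20% of all genes tested. These were Rbfox2, Srsf1, Ptbp1, Hnrnpm, Hnrnpul1, Hnrnpu, Mbnl2 and Hnrnpl. They were both lower for 4 members (10.3%), against 16.9% of all genes. These were Hnrnpf, Tra2a, Srsf9 and Hnrnph2. With each library corrected for its trend with gene length the counts were 5 above (12.8%) and 7 below (17.9%), beside 17.1% of all genes in either direction on that scale. On the uncorrected scale the share of members with separated genotypes was thus near or under that of all genes.

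**Figure D1:**
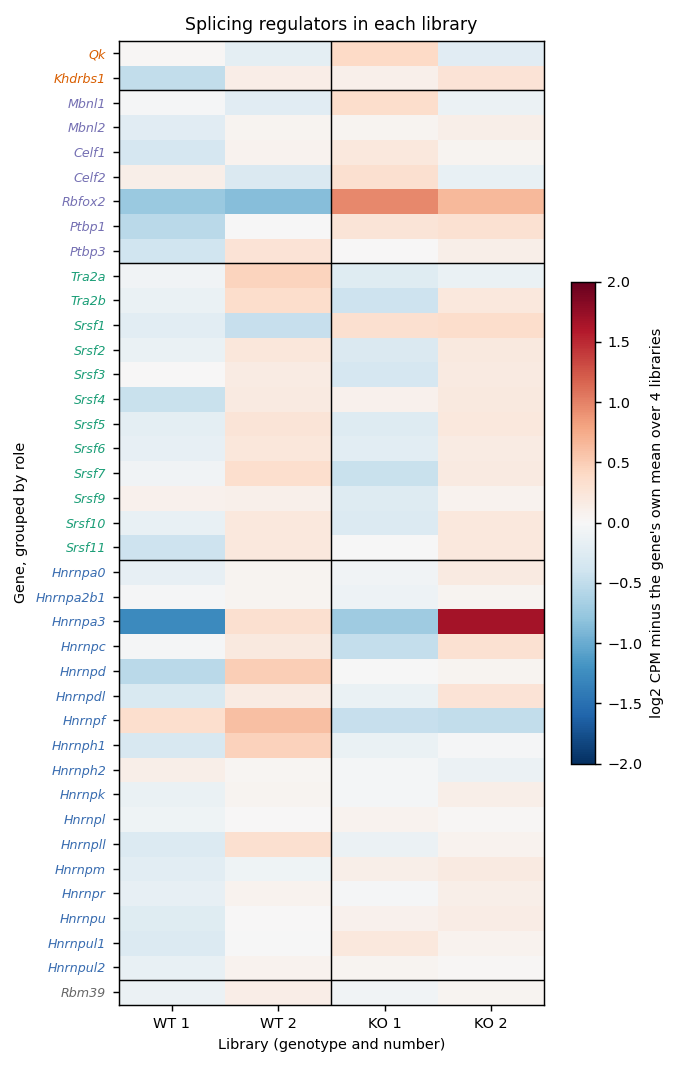
Each row is 1 of the 39 genes, grouped by role and separated by lines, and each column is 1 library. Colour gives log2 CPM minus the mean of that gene over the 4 libraries, from blue (lower) to red (higher). Rbfox2 and Hnrnpf differ most between the left and the right pair of columns among genes whose genotypes do not overlap, and Hnrnpa3 differs most between single libraries.

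**Figure D2:**
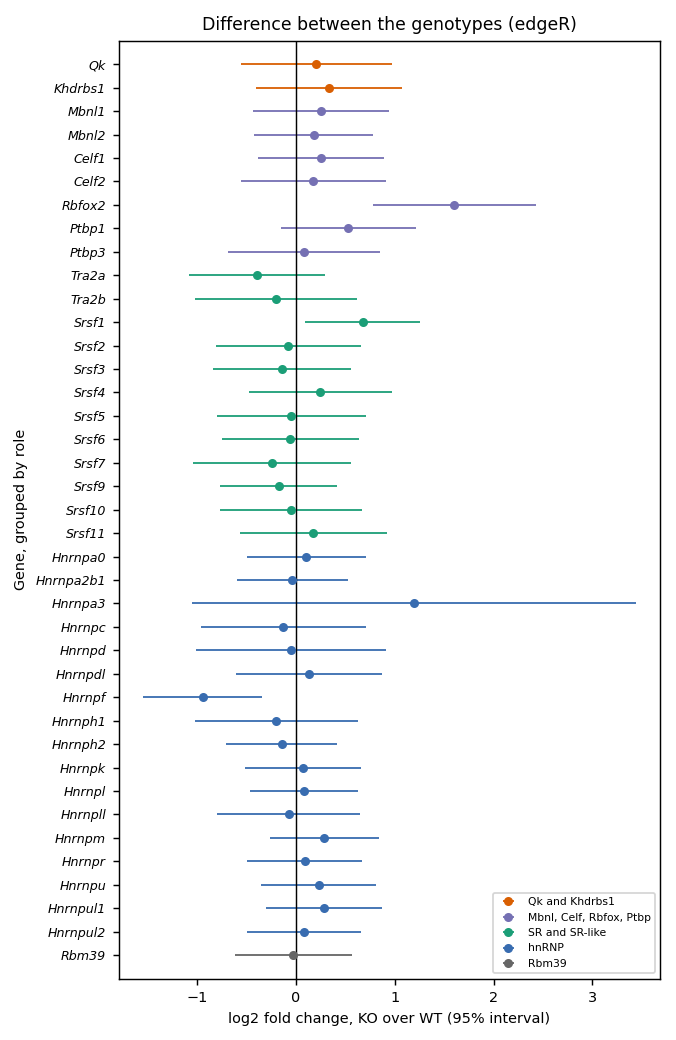
Points are log2 fold changes of KO over WT from edgeR and bars are 95% confidence intervals, with 2 libraries per genotype. The bars of Rbfox2 and Srsf1 lie above 0, that of Hnrnpf lies below 0, and the other 36 cross 0.

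Qk (ENSMUSG00000062078) lies on the minus strand of chromosome 17 and spans positions 10206471 to 10319361 in the deposited table, on the GRCm38 assembly. Its level was 181 and 155 CPM in WT libraries 1 and 2 and 235 and 152 CPM in KO libraries 1 and 2. KO library 1 was thus the highest and KO library 2 the lowest of the 4, and the genotypes overlapped. KO differed from WT by a log2 fold change of 0.20 ± 0.30 (SE, n = 2 per genotype, 95% confidence interval -0.56 to 0.97, edgeR quasi-likelihood adjusted p = 0.967). Without KO library 1 it was -0.14. GENCODE M21 gives Qk 4 coding transcripts that end at 3 different stop codons, and the gene-level counts do not separate the QKI isoforms that these encode.

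Khdrbs1 encodes Sam68, a relative of QKI with the same type of RNA-binding domain. It was at 37.1 and 56.9 CPM in WT and 55.7 and 62.8 CPM in KO, with WT library 1 the lowest and the others close together (log2 fold change 0.33 ± 0.29 SE, edgeR adjusted p = 0.952).

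All 7 genes of the muscleblind, CELF, RBFOX and PTB families had fitted log2 fold changes above 0, as had 6776 of the 12418 genes tested. The median of the 7 was 0.25, beside 0.04 over all genes tested. None of the 7 was called by the edgeR quasi-likelihood test, while the edgeR exact test called Rbfox2. The shared direction depended on the settings, since with the length correction 3 of the 7 (Rbfox2, Ptbp1 and Mbnl2) were above 0, and 6 of the 7 were above 0 in each of the fits without WT library 1, WT library 2 or KO library 1. Their summed level was 683 and 789 CPM in WT and 904 and 819 CPM in KO, with the KO sums above the WT sums.

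Rbfox2, which binds the motif TGCATG in introns and governs exons in muscle, nerve and epithelial-to-mesenchymal programmes, showed the largest fold change of the 39. It had 33 and 30 counts in WT libraries 1 and 2 and 123 and 105 counts in KO libraries 1 and 2, or 2.03, 1.88, 6.60 and 5.33 CPM. The genotypes did not overlap, and KO was 3.04-fold higher (log2 fold change 1.60 ± 0.33 SE, 95% confidence interval 0.78 to 2.43, unadjusted p = 0.00389 and adjusted p = 0.289 by the edgeR quasi-likelihood test). Rbfox2 had the lowest level per length of all members, 0.322 FPKM as the mean of 4 libraries (fragments per kilobase of gene, scaled to the library total). The stromal marker list differed in the same direction. The log2 fold changes of its 11 tested genes had a median of 2.22. Of these genes 10 were higher in each KO library than in each WT library, against 20% of all genes tested. Among them were Pdgfra (14.1, 20.1, 70.8 and 73.6 CPM in WT 1, WT 2, KO 1 and KO 2) and Col1a2 (9.93, 11.9, 70.7 and 51.6 CPM). Lepr, also on the list, had 3 counts in WT library 1 and 0 counts in the others. The part of stromal cells in the difference of Rbfox2 was not tested, and in bulk samples fewer cells of a type and less RNA per cell cannot be told apart.

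Ptbp1, a repressor of exons next to pyrimidine-rich tracts, was at 55.9 and 80.4 CPM in WT and 96.8 and 99.9 CPM in KO. The KO libraries were close together and above both WT libraries, which themselves stood apart. The log2 fold change was 0.53 ± 0.27 (SE, edgeR adjusted p = 0.848). Its paralogue Ptbp3, which is known from blood cells, was at 131 and 209 CPM in WT and 173 and 187 CPM in KO, with both KO values between the WT values.

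The muscleblind genes, whose proteins switch fetal to adult isoforms, were both well expressed. Mbnl1 was at 222 and 193 CPM in WT and 287 and 208 CPM in KO, and the genotypes overlapped. Mbnl2 was at 148 and 179.6 CPM in WT and 181 and 189 CPM in KO, where the lower KO library exceeded the higher WT library by less than the WT libraries differed from each other (log2 fold change 0.18 ± 0.24 SE, edgeR adjusted p = 0.964). The CELF proteins bind GU-rich RNA and often act against the muscleblind proteins. Celf1 was at 56.1 and 73.9 CPM in WT and 81.3 and 73.4 CPM in KO, and Celf2 at 68.2 and 51.3 CPM in WT and 78.5 and 56.5 CPM in KO, both with overlapping genotypes. With the length correction the fitted log2 fold change of Celf1 turned from 0.25 to -0.019 and that of Celf2 from 0.18 to -0.25.

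**Figure D3:**
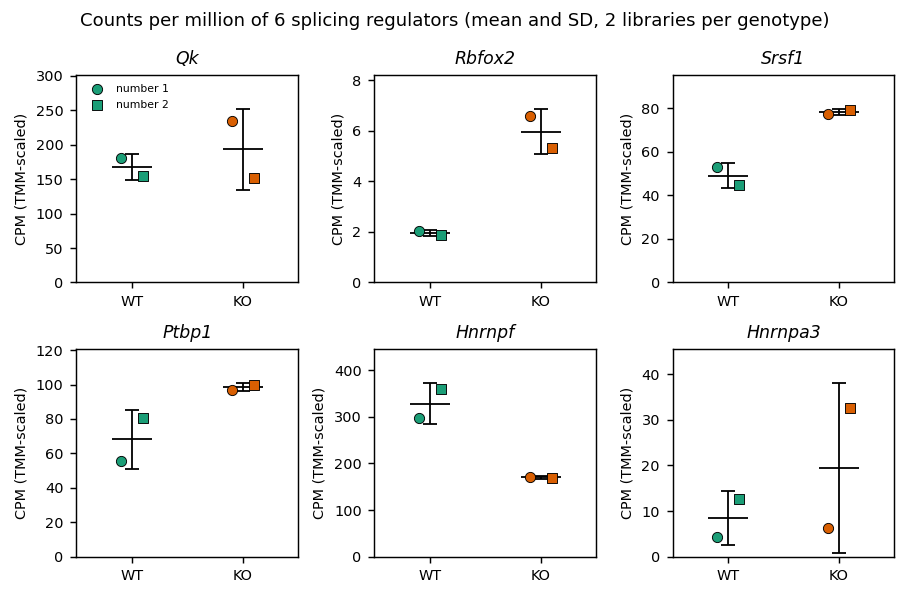
Circles are libraries numbered 1 and squares are libraries numbered 2, in CPM on an axis from 0, with the mean and SD of 2 libraries per genotype. Rbfox2, Srsf1, Ptbp1 and Hnrnpf have no overlap between the genotypes, while the KO libraries of Qk lie on either side of the WT libraries and Hnrnpa3 is highest in KO library 2.

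The 12 SR and SR-like genes had log2 fold changes with a median of -0.07, 3 above 0 and 9 below 0. Of all 12418 genes tested, 6776 were above 0 and 5642 below 0. The summed level of the 12 was 1166 and 1489 CPM in WT and 1085 and 1455 CPM in KO. The libraries numbered 2 thus exceeded those numbered 1 in both genotypes, and the genotypes overlapped.

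Srsf1 encodes SF2/ASF, the founding member of the SR family, which recruits the U1 particle to the 5' splice site. It was at 53.2 and 44.9 CPM in WT libraries 1 and 2 and 77.2 and 79.2 CPM in KO libraries 1 and 2. The KO libraries were close to each other and above both WT libraries, and KO was 1.59-fold higher (log2 fold change 0.67 ± 0.23 SE, 95% confidence interval 0.09 to 1.25, unadjusted p = 0.0305 and adjusted p = 0.643 by the edgeR quasi-likelihood test). The proliferation markers stood beside it, with 0.80 as their median log2 fold change. Of these 16 of 20 were higher in each KO library than in each WT library, against 20% of all genes tested. Their summed level overlapped, at 586 and 419 CPM in WT and 525 and 473 CPM in KO. Pcna, the highest of the list, was lower in each KO library, at 438 and 271 CPM in WT and 260 and 246 CPM in KO. The part of cell division in the difference of Srsf1 was not tested.

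Tra2a and Tra2b encode SR-like activators of exons with GAA-rich enhancers. Tra2a was at 56.5 and 81.5 CPM in WT and 50.4 and 54.3 CPM in KO, with WT library 2 standing above the other 3 (log2 fold change -0.40 ± 0.27 SE, edgeR adjusted p = 0.912). Tra2b was at 98.3 and 138 CPM in WT and 80.6 and 124 CPM in KO, and overlapped. Srsf9 was at 38.9 and 39.4 CPM in WT and 30.6 and 38.6 CPM in KO, where KO library 2 was nearly level with WT (log2 fold change -0.18 ± 0.23 SE, edgeR adjusted p = 0.964).

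The other 8 SR genes overlapped between the genotypes, with fitted log2 fold changes from -0.24 for Srsf7 to 0.24 for Srsf4. Srsf3 and Srsf7 are small SR proteins that also help to export mRNA, and Srsf2 lies in nuclear speckles. By FPKM the highest of the 12 were Srsf2 (37.9, from 32.7 to 43.1 over the libraries) and Srsf7 (36.2, from 29.3 to 42.6), whose order is not settled. The place of Srsf7 depended on the gene length. Per kilobase of the merged exons of GENCODE M21, Srsf2 was at 75.3, while Srsf7 (23.3) stood below Srsf5 (52.1), Srsf6 (27.1) and Srsf3 (26.6). Srsf2 was at 202 and 259 CPM in WT and 181 and 254 CPM in KO. Srsf5 was at 179 and 245 CPM in WT and 172 and 238 CPM in KO, a pattern in which both genotypes repeated the same step between the libraries numbered 1 and 2.

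The 17 hnRNP genes had log2 fold changes with a median of 0.08, 10 above 0 and 7 below 0, beside 6776 and 5642 of all genes tested. The summed level of the 17 was 2407 and 2858 CPM in WT and 2449 and 2708 CPM in KO. Both KO sums lay between the WT sums.

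Hnrnpf, whose protein binds runs of G near exons, was at 297 and 359 CPM in WT libraries 1 and 2 and 172 and 168 CPM in KO libraries 1 and 2. Both KO libraries lay under both WT libraries, and KO was at 0.520 of WT (log2 fold change -0.94 ± 0.24 SE, 95% confidence interval -1.55 to -0.34, unadjusted p = 0.00962 and adjusted p = 0.378 by the edgeR quasi-likelihood test). Markers of some other cell types were lower in KO as well. The mast cell and basophil list summed to 68.3 and 62.0 CPM in WT and 28.3 and 33.7 CPM in KO, with 3 of 4 tested genes lower in each KO library and Mcpt8 at 0 in all libraries. The neutrophil list summed to 38.8 ± 1.45 CPM (SD, n = 2) in WT and 22.99 ± 2.84 CPM in KO, with 3 of 4 tested genes lower. Mmp8 was higher, at 11.6 and 12.1 CPM in WT and 13.1 and 13.2 CPM in KO, and Elane and Mpo were at 0. The erythroid list summed to 10.3 ± 2.64 CPM in WT and 2.52 ± 0.678 CPM in KO, with 3 of 3 tested genes lower. The B cell list summed to 159 and 181 CPM in WT and 147 and 137 CPM in KO, with 5 of 5 lower. Most of the B cell sum was Blnk, at 137 and 158 CPM in WT and 135 and 125 CPM in KO. Over all genes tested 16.9% were lower in each KO library than in each WT library. The part of these cells in the difference of Hnrnpf was not tested. For Hnrnpf, the log2 ratio between the libraries numbered 1 was -0.79, and between those numbered 2 it was -1.09. GENCODE M21 holds 6 processed pseudogenes that share at least 50% of their 31-base words with Hnrnpf, and counts of these copies were not analysed here. Its closest relatives bind the same motif. Hnrnph1 was at 71.9 and 124 CPM in WT and 82.3 and 88.5 CPM in KO, with both KO values between the WT values. Hnrnph2 was at 163 and 155 CPM in WT and 148 and 139.9 CPM in KO (log2 fold change -0.15 ± 0.22 SE, edgeR adjusted p = 0.967). Whether Hnrnpf differed more than Hnrnph2 was not tested.

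Among the hnRNP genes with both KO libraries above both WT libraries, Hnrnpm was at 95.7 and 104 CPM in WT and 119 and 125 CPM in KO (log2 fold change 0.29 ± 0.22 SE, edgeR adjusted p = 0.933). Its annotated exons share 1169 bases with March2 on the same strand, so counts of the pair may be mixed. Hnrnpu, a large scaffold-attachment protein, was at 355 and 421 CPM in WT and 443 and 465 CPM in KO (log2 fold change 0.23 ± 0.23 SE, edgeR adjusted p = 0.957). Its relative Hnrnpul1 was at 61.6 and 73.7 CPM in WT and 86.0 and 78.5 CPM in KO (log2 fold change 0.28 ± 0.23 SE, edgeR adjusted p = 0.941). In each of these 3 genes the fitted difference was at most 1.5 SE. Hnrnpl, a reader of CA repeats that regulates Cd45 exons, was at 92.1 and 98.2 CPM in WT and 102 and 98.9 CPM in KO, and KO library 2 exceeded WT library 2 by less than 1 CPM.

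Hnrnpa3 varied most of all members, by 7.64-fold between its highest and lowest library. It had 69 and 203 counts in WT libraries 1 and 2 and 117 and 640 counts in KO libraries 1 and 2, or 4.25, 12.7, 6.28 and 32.5 CPM. The libraries numbered 2 were above those numbered 1 in both genotypes, and the genotypes overlapped (log2 fold change 1.19 ± 0.89 SE, edgeR adjusted p = 0.932). Without KO library 2 the log2 fold change was -0.44. GENCODE M21 holds 15 pseudogene copies of Hnrnpa3, of which 2 were analysed here, with 2 to 3 counts together, so reads of this gene could be shared out differently by another counting.

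Hnrnpk, a poly(C)-binding protein, was at 181 and 208 CPM in WT and 194 and 215 CPM in KO. Its processed pseudogene Gm7964, which shares 78.7% of its 31-base words with Hnrnpk, held 3226, 3936, 3886 and 5200 counts in WT 1, WT 2, KO 1 and KO 2, more than the 2943, 3310, 3615 and 4227 counts given to Hnrnpk itself, so the level of Hnrnpk is uncertain. The other hnRNP genes (Hnrnpa0, Hnrnpa2b1, Hnrnpc, Hnrnpd, Hnrnpdl, Hnrnpll, Hnrnpr and Hnrnpul2) overlapped between the genotypes, with log2 fold changes from -0.13 for Hnrnpc to 0.13 for Hnrnpdl. Hnrnpc, which binds U-rich tracts in introns, was at 146 and 169 CPM in WT and 106 and 182 CPM in KO, so that both the lowest and the highest library were KO. Rbm39, a U2AF-like splicing factor that is the target of sulfonamide degraders, was at 172 and 203 CPM in WT and 176 and 192 CPM in KO, close together in all 4 libraries (log2 fold change -0.03 ± 0.24 SE, edgeR adjusted p = 0.993).

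The libraries were also compared by their number. Both libraries numbered 2 lay above both numbered 1 for 22 of the 39 members (56.4%), against 25.2% of all genes tested, and below them for 3 members (Qk, Mbnl1 and Celf2), against 23.2% of all genes. The 22 comprised 9 of the 12 SR genes, 10 of the 17 hnRNP genes, Khdrbs1, Ptbp3 and Rbm39. In WT the median log2 ratio of library 2 to library 1 was 0.40 over the SR genes and 0.24 over the hnRNP genes, and in KO it was 0.42 and 0.11, while over all genes tested it was -0.0030 in WT and -0.0028 in KO. With the length correction 23 members had both libraries numbered 2 above both numbered 1, against 27.9% of all genes. Other splicing regulators, read from a list of 50 tested genes, had the pattern in 26 (52.0%), or 30 (60.0%) with the length correction. Core spliceosome genes had it in 22 of 70 (31.4%), or 30 (42.9%) with the length correction. Of the 12 macrophage markers 5 were higher and 2 lower in the libraries numbered 2, and Cd14, one of the higher ones, was at 125, 683, 106 and 533 CPM in WT 1, WT 2, KO 1 and KO 2. What the numbers stand for was not tested.

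Set against WT inside each number, KO had a median log2 ratio of 0.16 over the members in number 1 and of 0.0038 in number 2, beside 0.11 and -0.0013 over all genes tested. The ratio had the same sign in both numbers for 29 members, 18 above 0 and 11 below 0. It was 1.68 and 1.49 for Rbfox2, 0.54 and 0.82 for Srsf1 and 0.79 and 0.31 for Ptbp1. For Qk it was 0.38 in number 1 and -0.03 in number 2.

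**Figure D4:**
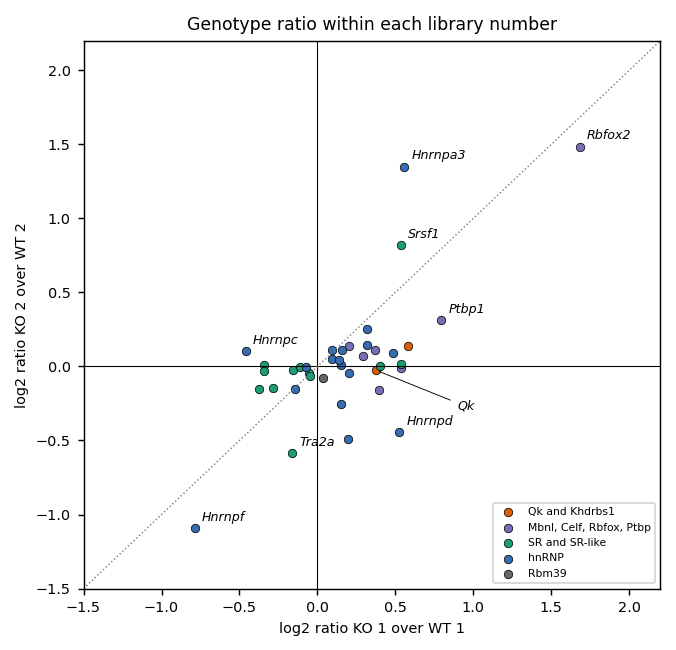
Each point is 1 of the 39 genes, placed by its log2 ratio of KO to WT in the libraries numbered 1 (horizontal) and numbered 2 (vertical), coloured by role. The dotted line marks equal ratios. Rbfox2 and Hnrnpa3 at the upper right and Hnrnpf at the lower left stand furthest from 0, and Hnrnpd has ratios of opposite sign.

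The levels of the members per length ranged from 0.322 to 47.5 FPKM as the mean of 4 libraries, with a median of 11.7 FPKM. The highest were Hnrnpc (47.5 FPKM, from 37.6 to 57.6 over the libraries), Hnrnpa0 (40.8 FPKM, from 34.6 to 45.7) and Hnrnpu (40.7 FPKM, from 32.6 to 47.6), whose ranges overlap, so their order is not settled. The lowest were Rbfox2, Celf2 (1.06 FPKM, from 0.795 to 1.44) and Hnrnpa3 (1.87 FPKM, from 0.548 to 4.38). The ranges of Rbfox2 and Celf2 did not overlap, and those of Celf2 and Hnrnpa3 did. Qk had rank 13 of the 39, at 18.4 FPKM, from 14.6 to 26.3.

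The order depended on the gene length. The length implied by count and FPKM was between 0.380 and 3.33 times the merged exons of GENCODE M21, and over 2 times for 12 members. Counts were also taken per kilobase of merged exons and relative to the library total without TMM scaling, which keeps the unit of FPKM. On that scale the highest member was Hnrnpf at a mean of 80.5, followed by Srsf2 at 75.3, and Qk was at 12.8. Of the 10 highest members 6 were shared between the scales. Mbnl2 had rank 4 by FPKM (38.4 FPKM) and stood at 14.6 per kilobase of merged exons.

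**Figure D5:**
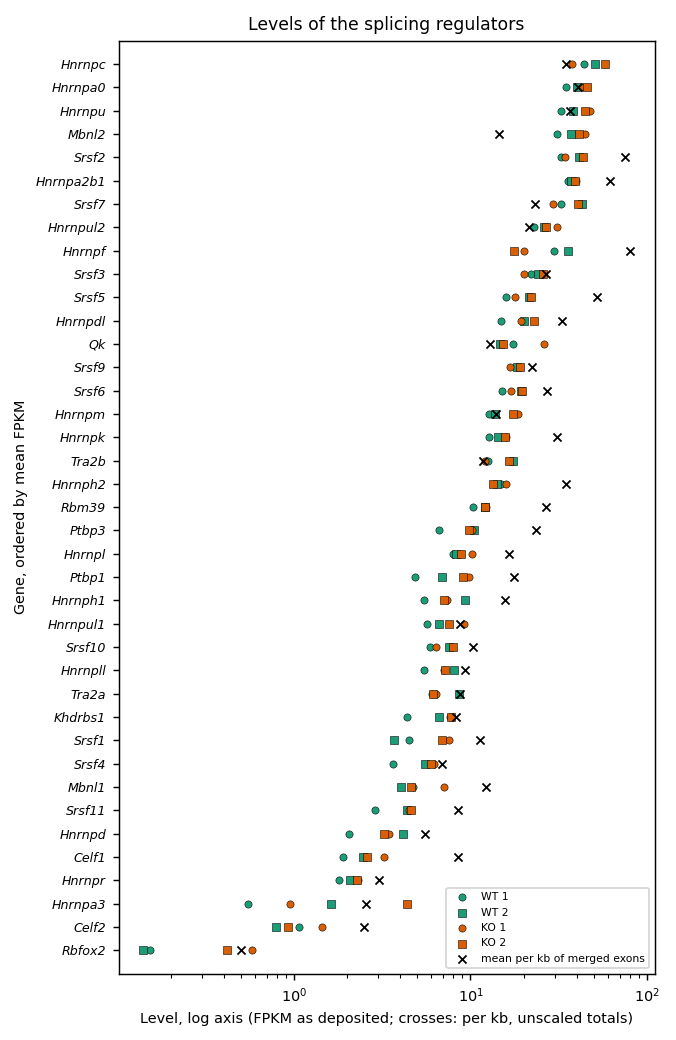
Genes are ordered by mean FPKM, drawn on a log axis. Circles and squares are the deposited FPKM of the libraries numbered 1 and 2 (green WT, orange KO) and crosses are means of the counts per kilobase of merged exons, relative to library totals without TMM scaling. The symbols of the 4 libraries lie close together for most genes, and the crosses depart from them most for Celf1 and Hnrnpf to the right and for Mbnl2 to the left.

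Paralogues were compared inside each library, where library scaling cancels, as log2 ratios of FPKM. Of 13 pairs 4 had no overlap between the genotypes. With 2 libraries against 2 the smallest p of an exact test on their order is 0.333. No test of the ratios was made, and nothing is read from the count. Among all single genes tested 20% had KO above and 16.9% KO below without overlap, and the 4 pairs are given as values. The log2 ratio of Srsf2 to Srsf1 was 2.88 and 3.48 in WT libraries 1 and 2 and 2.18 and 2.64 in KO libraries 1 and 2, lower in both KO libraries. The log2 ratio of Ptbp1 to Ptbp3 was -0.45 and -0.60 in WT and -0.06 and -0.12 in KO, which brought the pair near parity in KO. The log2 ratio of Srsf4 to Srsf6 was -2.04 and -1.80 in WT and -1.45 and -1.73 in KO. That of Hnrnpul1 to Hnrnpul2 was -2.02 and -1.97 in WT and -1.75 and -1.84 in KO. In all 3 the KO libraries were the higher ones. The other 9 pairs overlapped, including Mbnl1 with Mbnl2 (-2.72 and -3.20 in WT, -2.64 and -3.17 in KO), where both genotypes repeated the same step between the numbers. The size of such a ratio, unlike its steps between libraries, rests on the gene lengths behind FPKM, and per kilobase of merged exons the mean log2 ratio of Mbnl1 to Mbnl2 was -0.27.

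Since QKI acts on RNA that carries its response element, the 3' UTRs were searched for it. The search took ACTAAC or ACTAAT followed within 1 to 20 bases by TAAC or TAAT, on the sense strand of the GRCm38 genome with GENCODE M21 UTRs. Of the 39 members 6 (15.4%) held such a site, against 8.07% of the 10833 tested genes with a 3' UTR. Per kilobase of UTR the figures were 0.0702 and 0.0600 sites, since the median UTR of the members, 1468 bases, was longer than that of all these genes, 1036 bases. The members with a site were Qk itself, Srsf1, Celf2, Mbnl2, Hnrnpr and Hnrnpu. The sites of the first 4 of these are printed to show the element, with the core and the second site in capitals. They lie at chr17:10206526-10206555 on the minus strand (Qk), chr11:88050317-88050340 on the plus strand (Srsf1), chr2:6546708-6546726 on the minus strand (Celf2) and chr14:120430955-120430969 on the plus strand (Mbnl2).
Qk: ACTAACtctggactatgtttgtttatTAAC
Srsf1: ACTAATgtgggaagaatggcTAAT
Celf2: ACTAATgtgcagttcTAAC
Mbnl2: ACTAATtgttgTAAC
The Qk site has the ACTAAC form of the core and the widest spacing of the 4. The 3' UTR of Lrp1, an endocytic receptor whose mRNA the study follows, held 0 such sites. The study reports, from RNA immunoprecipitation and RNA pull-down in macrophages, that the isoform QKI7 associates with Lrp1 mRNA. Coding sequences were not searched here, so the search does not bear on that association.

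Promoters of 34 of the 39 members were found in the RefSeq table of GRCm38.p6, as the 250 bases before the annotated start. Khdrbs1, Rbfox2, Ptbp3, Hnrnpll and Hnrnpul2 were not matched. The median GC content of the 34 was 61.6%, against 52.4% over all 32851 starts. These starts were not limited to the genes tested here, and some genes have several. Whether the 34 differ from other expressed genes was therefore not examined. The GC box GGGCGG was present on either strand in 24 of the 34 (70.6%, against 32.7% of all starts). A CCAAT box was present on either strand in 18 (52.9%, against 33.8%) and TATAAA in 5 (14.7%, against 12.4%). The promoters of Qk, Srsf1 and Hnrnpf are printed because they are the named member and the members with the lowest unadjusted p in each direction that the table holds, with GC boxes in capitals. They lie at chr17:10319362-10319611 on the minus strand, chr11:88047123-88047372 on the plus strand and chr6:117900090-117900339 on the plus strand.
Qk: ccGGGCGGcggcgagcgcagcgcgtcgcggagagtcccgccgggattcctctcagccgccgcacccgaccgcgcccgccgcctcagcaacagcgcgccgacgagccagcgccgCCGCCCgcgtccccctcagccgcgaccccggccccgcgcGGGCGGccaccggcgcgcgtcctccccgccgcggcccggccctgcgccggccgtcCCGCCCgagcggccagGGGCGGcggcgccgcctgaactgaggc
Srsf1: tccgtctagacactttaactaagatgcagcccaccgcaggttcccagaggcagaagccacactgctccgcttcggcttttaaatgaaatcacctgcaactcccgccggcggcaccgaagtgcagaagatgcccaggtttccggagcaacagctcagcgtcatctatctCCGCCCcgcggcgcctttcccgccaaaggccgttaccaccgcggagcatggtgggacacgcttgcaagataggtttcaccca
Hnrnpf: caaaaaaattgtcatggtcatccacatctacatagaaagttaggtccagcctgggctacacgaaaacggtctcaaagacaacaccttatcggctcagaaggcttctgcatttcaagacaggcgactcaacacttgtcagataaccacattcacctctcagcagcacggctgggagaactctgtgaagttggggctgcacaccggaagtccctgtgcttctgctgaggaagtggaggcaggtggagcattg
The RefSeq start of Qk lies 493 bases inside the gene as GENCODE M21 annotates it, so the window printed for Qk falls within the GENCODE gene. It had 84.8% GC and 52 CpG dinucleotides, the most of the 34, and the Srsf1 promoter had 58.8% GC and 19 CpG. The Hnrnpf window had 50.4% GC, 6 CpG and no GC box, and the table lists 4 starts for this gene. No value of these libraries bears on the promoters beyond the RNA levels given.

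The rest of the splicing machinery was read from lists. Of 70 core spliceosome genes 0 were called by the edgeR quasi-likelihood test, with 0 higher and 1 lower (Snrnp35) at an unadjusted p under 0.05, against 4.64% and 1.99% of all genes tested, and a median log2 fold change of 0.02. Each KO library was higher than each WT library for 16 (22.9%) and lower for 23 (32.9%), where all genes tested had shares of 20% and 16.9%. Prpf8, the scaffold of the catalytic centre, was at 97.9 and 108 CPM in WT and 145 and 117 CPM in KO. Snrnp35, a protein of the minor spliceosome, was at 41.6 and 43.9 CPM in WT and 16.9 and 24.2 CPM in KO (log2 fold change -1.06 ± 0.27 SE, unadjusted p = 0.00978 and edgeR adjusted p = 0.382). Both genes had separated genotypes, in opposite directions. Snrnp200 (0.34) and Cwc22 (0.30) were the other named genes with a log2 fold change above 0, and Snrpe (-0.76) and Sf3b6 (-0.67) those below 0.

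Of 9 kinases that phosphorylate SR proteins or act with them 8 were tested, and 0 were called or reached an unadjusted p under 0.05. Dyrk1a was at 27.1 and 35.9 CPM in WT and 37.0 and 36.6 CPM in KO, and Prpf4b at 61.6 and 79.7 CPM in WT and 81.0 and 80.0 CPM in KO, the only 2 of the 8 with separated genotypes, both higher in KO, as were 20% of all genes tested. Of 66 other splicing regulators 50 were tested, and 0 were called or reached an unadjusted p under 0.05. Their median log2 fold change was 0.15, and 14 (28.0%) were higher and 3 (6.0%) lower in each KO library than in each WT library, beside the 20% and 16.9% of all genes tested. Khdrbs3, which encodes the Sam68-like protein SLM2, was at 0.370 and 0.377 CPM in WT, 6 counts each, and at 0.859 and 0.914 CPM in KO, from 16 and 18 counts (log2 fold change 1.23 ± 0.51 SE, edgeR adjusted p = 0.777). The log2 fold change was 0.61 for Pcbp3 and 0.46 for Rbm38 on the higher side and -0.14 for Ybx1, -0.12 for Luc7l3 and -0.10 for Raly on the lower side.

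A list of 6 genes around stress granules, internal m7G and QKI was read as well, and 2 of them, G3bp2 and Gsk3b, had KO above WT without overlap, as did 20% of all genes tested. Lrp1 was at 429 and 409 CPM in WT and 532 and 315 CPM in KO, so that the KO libraries enclosed the WT libraries, as they did for Qk. Mettl1 and Wdr4 encode the subunits of the m7G methyltransferase. Both WT libraries of Mettl1 lay between its KO libraries, which were at 6.33 and 13.8 CPM, and Wdr4 was at 9.80, 10.2, 9.07 and 10.1 CPM in WT 1, WT 2, KO 1 and KO 2. G3bp2, the paralogue of G3bp1, was at 96.4 and 103 CPM in WT and 133 and 114 CPM in KO (log2 fold change 0.31 ± 0.23 SE, edgeR adjusted p = 0.930), and Gsk3b, a kinase of many signalling pathways, at 46.9 and 47.2 CPM in WT and 67.8 and 54.8 CPM in KO (log2 fold change 0.38 ± 0.23 SE, edgeR adjusted p = 0.902). Of the 6 genes, G3bp1 included, 0 were called by edgeR, and 0 had an unadjusted p under 0.05.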

How the data were processed

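RNA-seq covered macrophages of both genotypes, with 2 libraries each. According to the study's methods reads were filtered with Seqtk, mapped with HISAT2 2.0.4 and counted with StringTie 1.3.3b. The authors deposited raw counts per gene and, beside them, FPKM values, which were used for levels between genes only. The submitters' notes name mm39, but 27682 of the 34267 identifiers shared with GENCODE M21 had the same position on GRCm38, so positions are on GRCm38. The notes do not state whether counting used strand, so overlapping and antisense genes cannot be told apart.

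Counts were fitted in R 4.3.3 with edgeR 4.0.16 (filterByExpr with a minimum count of 10 and a minimum total of 15, TMM with factors of 0.955 and 0.942 for the WT libraries and 1.12 and 0.997 for the KO libraries, no term besides genotype, quasi-likelihood test, two-sided, Benjamini-Hochberg adjustment over 12418 genes). The code was tested on simulated counts. A call needed an adjusted p under 0.05 together with an absolute log2 fold change over 1. Standard errors come from the F statistic. Ratios within a number had 0.5 counts added. A symbol naming more than 1 gene was counted once in lists.

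The members, lists and tests were chosen with earlier results of these data known. Named in full were Qk, up to 6 members in each direction with non-overlapping genotypes and the largest fold change, the 3 highest and 3 lowest by FPKM, the paralogue pairs, and from each list up to 3 genes in each direction by the same rule. Other genes and markers named were chosen after their values were seen. The 1 marker list not quoted in the report summed, in WT 1, WT 2, KO 1 and KO 2, to 270.0, 384, 393 and 426 CPM (dendritic). Replicate counts differed beyond sampling noise, with chi-square values of 122 (WT) and 87.6 (KO) per degree of freedom. Between the genotypes the values were lower, at 85.7 for the libraries numbered 1 and 23.1 for those numbered 2. Alternatives were DESeq2 size factors, other filters, a replicate block, each library left out, the edgeR exact test, the Wald test of DESeq2 1.42.0, no minimum fold change and a loess length correction (span 0.5). Levels per kilobase of merged exons were added after seeing the data. No sample was left out.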

Additional observations from a re-analysis of the deposited data

How the results depend on the processing

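Over 25 results and 261 alternative values, 235 kept the direction and side of the threshold of the reported value or stayed within its spread. With a replicate block, 2 members were called (Rbfox2, log2 fold change 1.60, and Hnrnpa3, 1.00), where 664 genes (5.35%) were called in all. On the adjusted p alone 4 members passed, and 974 genes (7.84%) did. The block with the length correction called 2 members (Rbfox2, 1.41, and Hnrnpf, -1.08) among 623 genes. Each of these 2 fits called 1 core spliceosome gene, Snrnp35. Library deviations from the genotype means correlated by 0.701 between the libraries of one number, but 2 pairs cannot show that the numbers pair the samples, and no source says so. The edgeR exact test called 1 member (Rbfox2, 1.60) and 229 genes in all, and the DESeq2 Wald test called 169 genes and 0 members, with Hnrnpf (-0.98) past the adjusted p alone. Over the alternatives the adjusted p of Hnrnpf ran from 9.55e-08 (block with length correction) to 0.9998 (without KO library 1) and that of Rbfox2 from 5.84e-05 (block) to 0.9998 (without KO library 1). Each fit without 1 library left 1 library in a genotype. The spread in such a fit came from the other genotype, and no call is read from it.

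The median log2 fold change of the members was -0.11 with the length correction and -0.12 with block and length correction. Leaving out 1 library gave medians from -0.079 (without WT library 1) to 0.16, and -0.032 without KO library 2. The length correction gave 5 members with KO above WT and 7 below. Leaving out 1 library turned Qk to -0.14 and Hnrnpc to 0.21 (without KO library 1), Hnrnpa0 to -0.0056 (without WT library 1) and -0.032 (without KO library 2), Hnrnpa3 to -0.44 (without KO library 2), and Celf2 to -0.049 (without WT library 2) and -0.077 (without KO library 1). The opposite ends of these ranges were 0.48 for Qk, -0.58 for Hnrnpc, 0.22 for Hnrnpa0, 2.15 for Hnrnpa3 and 0.40 for Celf2. Celf2 was -0.25 with the length correction and -0.20 with block and length correction. Per kilobase of merged exons the highest level was 80.5 (Hnrnpf) in place of 47.5 FPKM (Hnrnpc). The causes were not tested. With 2 libraries a genotype the coefficient of biological variation was 0.343, or 0.169 with the block, and this spread limits which changes could be called.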
